A study of Mus musculus with 12 samples.

Results

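Cd207, Cd83 and Havcr2 encode surface molecules of Langerhans cells and other dendritic cells. Their levels were compared between mouse samples taken without wounding and at times after wounding. Each gene was read by 1 probe set, found by matching the RefSeq accession in the probe set's identifier to the gene symbol, so that the 3 probe sets stood among 1246 in all, of which 963 carried 1 symbol, for 909 genes. The genes were picked with earlier results of the same arrays known. Cd207 and Havcr2 had passed the test between 2 h and non-wounded samples when the replicate number was a block, and Cd83 had been among the smallest p-values between 2 h and 30 min. The differences of the 2 h samples from the non-wounded and from the 30 min samples are therefore given below as a description, with no test on the 3 genes.

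The series held 12 samples of B6 mice on single-colour arrays. Of them 4 were non-wounded. After wounding 1 sample was taken at 0 h, 2 samples at 30 min, 4 samples at 2 h and 1 sample at 4 h. No allele, transgene, agent, age or sex is named in the sources used here, and as labelled the groups differ only in wounding and time. The labels call the cells dendritic epidermal T cells (DETC), the resident T cells of mouse epidermis, whereas whole epidermis, which is mostly keratinocytes, is the RNA source in the design text. Genes of other epidermal cells gave signal in the non-wounded samples: Lgals7, a galectin of keratinocytes, averaged 12.08 ± 0.27 on the log2 scale (SD, n = 4), and Cd207 itself lay between the percentiles 85.3 and 90.9 of its sample. The 11 measured T cell markers averaged between 2.25 for the cytokine Il17a and 6.48 for the cytokine receptor subunit Il2rg, while Cd3e and Thy1 had no named probe set. Levels of different probe sets cannot be compared, so the share of T cells was not settled. It is not stated whether replicates came from separate mice, so a p-value speaks only for sample-to-sample spread, and that spread may be technical.

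Langerhans cells are the dendritic cells of the epidermis. They take up antigen between keratinocytes, mature on contact with danger signals and leave for the lymph node, where they present antigen to T cells. Cd207 encodes langerin, the C-type lectin that binds mannose-containing sugars, is taken up with its cargo and forms the Birbeck granules by which these cells are recognised. Cd83 encodes an immunoglobulin-family protein that appears on dendritic cells as they mature and holds MHC class II and CD86 at the cell surface. Havcr2 encodes TIM-3, a receptor first described on interferon-producing T cells and also carried by dendritic cells and NK cells, with galectin-9 and CEACAM1 among its ligands.

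The sequences before the start sites of Cd207 and Havcr2 are shown because the same 2 h call picked both genes, and that call did not use sequence. Of the 3 genes, these 2 matched the RefSeq promoter table and Cd83 did not. Each is the run of 250 bases that ends at the base before the RefSeq gene start in the mouse assembly GRCm38.p6, read on the gene's strand, with capitals marking matches to the motifs searched. The Cd207 stretch is chr6:83677858-83678107 on the minus strand and the Havcr2 stretch is chr11:46454681-46454930 on the plus strand.
Cd207: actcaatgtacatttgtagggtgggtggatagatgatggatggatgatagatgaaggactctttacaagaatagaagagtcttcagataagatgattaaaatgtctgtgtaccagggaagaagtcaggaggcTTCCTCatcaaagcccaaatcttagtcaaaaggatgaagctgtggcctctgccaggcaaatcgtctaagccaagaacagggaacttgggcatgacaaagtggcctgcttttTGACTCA
Havcr2: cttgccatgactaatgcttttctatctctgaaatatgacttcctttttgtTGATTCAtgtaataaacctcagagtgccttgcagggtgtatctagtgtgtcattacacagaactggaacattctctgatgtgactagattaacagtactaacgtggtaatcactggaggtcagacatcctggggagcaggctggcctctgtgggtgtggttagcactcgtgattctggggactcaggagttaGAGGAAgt
Of the motifs searched on both strands, TGANTCA of AP-1, a dimer of Jun and Fos proteins, and GAGGAA, a core bound by the myeloid factor PU.1, each occurred once in both stretches. In Cd207 the AP-1 match TGACTCA covered the 7 bases next to the start, and GAGGAA lay on the opposite strand, 113 to 118 bases before the start. In Havcr2 the AP-1 match TGATTCA lay 194 to 200 bases before the start and GAGGAA lay 3 to 8 bases before it. No matches overlapped each other. Neither the NF-kB consensus nor the TATA box letters TATAAA occurred in these windows. Among 32851 RefSeq promoter stretches of the same length, TGANTCA was in 6.75%, GAGGAA in 23.3%, the NF-kB consensus in 7.25% and TATAAA in 12.4%. A match describes letters in a window and shows no binding.

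The 5 samples numbered 1 in the titles, 1 in each group, stood apart from the 7 numbered 2 to 4. Within a sample, the log2 values of the probe sets spread with an SD between 1.55 and 1.85 in the samples numbered 1 and between 2.19 and 2.30 elsewhere, so that bright probe sets read lower and dim ones higher in the samples numbered 1. Values are therefore given for both kinds of sample. The percentile of a probe set among the 1246 of its own sample is given beside the log2 value, since it does not depend on that width.

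Cd207 was higher at 2 h within every replicate number. Its log2 values at 2 h were 7.71, 8.85, 9.32 and 9.22 for numbers 1 to 4, against 7.11, 7.57, 8.41 and 8.35 in the non-wounded samples. The ranges overlapped, because the 2 h sample numbered 1 lay below the non-wounded samples numbered 3 and 4; among numbers 2 to 4 every 2 h value lay above every non-wounded value. The group means were 8.77 ± 0.74 at 2 h and 7.86 ± 0.63 without wounding (SD, n = 4 each), a log2 difference of 0.91 ± 0.46 (limma SE), or 1.89-fold. The differences within the numbers were 0.60, 1.28, 0.91 and 0.87 on the log2 scale. In percentiles the groups did not overlap, at 93.7 to 96.1 at 2 h and 85.3 to 90.9 in the non-wounded samples. If the RNA came from whole epidermis, fewer cells of a type and less RNA per cell cannot be told apart, and likewise more of either.

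Cd83 had the largest 2 h difference of the 3 genes, and nearly all of it came from numbers 2 to 4. Its log2 values at 2 h were 4.25, 5.78, 5.98 and 6.56 for numbers 1 to 4, against 4.17, 4.27, 3.76 and 4.36 in the non-wounded samples. The 2 h sample numbered 1 lay within the non-wounded range and the other 3 lay above it. The means were 5.64 ± 0.98 at 2 h and 4.14 ± 0.27 without wounding (SD, n = 4 each), a log2 difference of 1.50 ± 0.43 (limma SE), or 2.83-fold. In numbers 2 to 4 alone the means were 6.11 ± 0.40 at 2 h and 4.13 ± 0.33 without wounding (SD, n = 3 each), a log2 difference of 1.97 ± 0.24, or 3.92-fold, while the pair numbered 1 differed by 0.08. The percentile at 2 h was 49.1 for number 1 and 68.9 to 76.4 for the others, against 45.3 to 57.3 in the non-wounded samples.

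Havcr2 had the smallest difference and the narrowest spread. Its log2 values at 2 h were 5.47, 5.29, 5.45 and 5.62 for numbers 1 to 4, against 4.50, 4.60, 4.73 and 4.84 in the non-wounded samples, with no overlap. The means were 5.46 ± 0.13 at 2 h and 4.66 ± 0.15 without wounding (SD, n = 4 each), a log2 difference of 0.79 ± 0.17 (limma SE), or 1.73-fold. Within the numbers the differences were 0.97, 0.69, 0.73 and 0.78, so the pair numbered 1 had the largest. The percentiles were 65.0 to 74.4 at 2 h and 56.1 to 61.9 in the non-wounded samples.

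**Figure D1:**
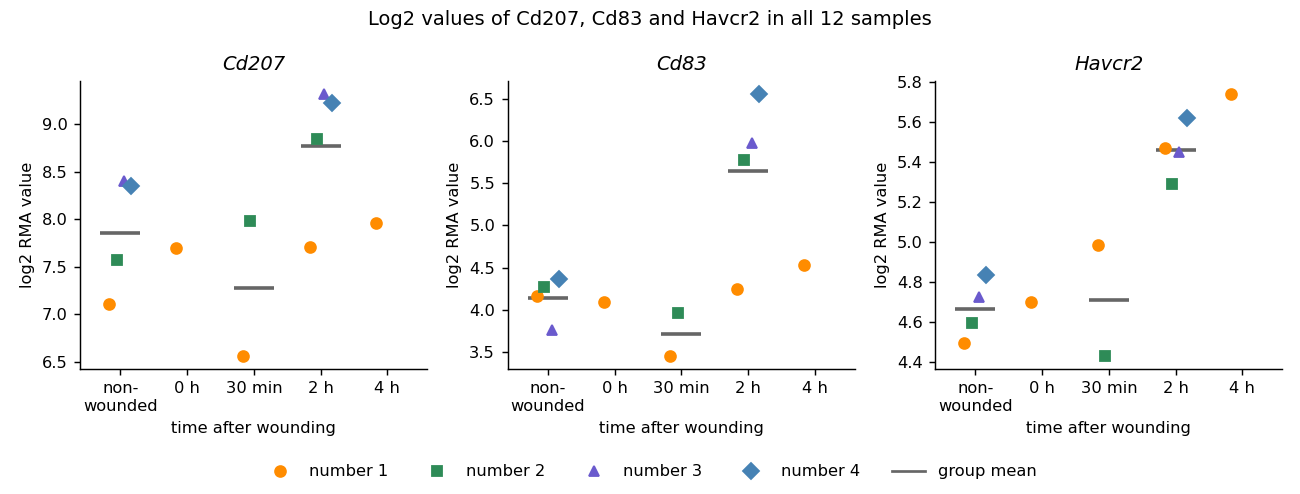
Log2 RMA value of each gene (vertical axis) in each of the 12 samples, by group (horizontal axis); point shape and colour give the replicate number and the grey line is the mean of a group with more than 1 sample. Havcr2 at 2 h (5.29 to 5.62) lies above all non-wounded values (4.50 to 4.84), while the Cd207 and Cd83 ranges overlap through the samples numbered 1.

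Set against all probe sets, 0 of the 3 genes passed between 2 h and non-wounded samples in limma's fit to all 12 samples at an adjusted p under 0.05, where 3 of 1246 (0.241%) passed. With the replicate number as a block, 2 of the 3 passed (Cd207 and Havcr2), beside 17 of 1246 (1.36%), which are the calls that the genes were picked by. In the samples numbered 2 to 4 alone, 2 of the 3 passed (Cd83 and Havcr2), beside 38 of 1246 (3.05%). All 4 values at 2 h exceeded all 4 non-wounded values for 1 of the 3 genes (Havcr2), as for 25 of 1246 probe sets (2.01%), and on percentiles for 2 of the 3 (Cd207 and Havcr2), as for 34 of 1246 (2.73%). Among numbers 2 to 4, all 3 genes had every 2 h value above every non-wounded one, as had 183 of 1246 (14.7%). All 3 genes were higher in all 4 pairs, as were 167 of 1246 (13.4%). Since these contrasts chose the genes, nothing is read from these counts.

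The 30 min samples were tested against the non-wounded ones, a contrast that was no criterion for the genes. Its samples were, since the 30 min values helped to choose Cd83 and the non-wounded values Cd207 and Havcr2, so the p-values on the 3 genes are not fully independent of the choice. None of the 3 passed between 30 min and non-wounded samples, and neither did any of the 1246 probe sets (0%) by limma, whether the replicate block was used or not. An unadjusted limma p under 0.05 was met by 63 without the block and 136 with it, where a share of 0.05 is expected with no difference. Cd207 was at 6.57 and 7.99 for numbers 1 and 2 at 30 min, against the non-wounded range of 7.11 to 8.41, a log2 difference of -0.58 ± 0.57 (SE; limma adjusted p = 0.756). Number 1 makes up more of the 30 min than of the non-wounded group, and with the replicate block the Cd207 difference was -0.08 ± 0.22 (limma adjusted p = 0.891), or -0.02 after quantile normalization. Its direction differed between the numbers, with -0.55 in number 1 and 0.42 in number 2, while its percentiles at 30 min, 88.6 and 89.0, lay inside the non-wounded range. Cd83 was at 3.46 and 3.96 at 30 min, against 3.76 to 4.36 in the non-wounded samples, a log2 difference of -0.43 ± 0.53 (SE; limma adjusted p = 0.776). With the block it was -0.16 ± 0.43 (limma adjusted p = 0.884). The differences within numbers 1 and 2 were -0.71 and -0.32, and the percentile of number 1, 23.6, was the lowest of Cd83 in the 12 samples. For 0 of the 3 genes did both 30 min samples lie below all 4 non-wounded samples, beside 64 of 1246 (5.14%). Havcr2 was at 4.99 and 4.43 at 30 min, against 4.50 to 4.84, a log2 difference of 0.04 ± 0.21 (SE; limma adjusted p = 0.940), with 0.49 in number 1 and -0.17 in number 2; in numbers 2 to 4 alone the sign turned, to -0.29 ± 0.16 (limma adjusted p = 0.976) with a single 30 min sample. Without the 30 min sample numbered 1 the Cd207 difference was 0.13 and that of Havcr2 -0.23, without the non-wounded sample numbered 1 that of Havcr2 was -0.01, and without the 30 min sample numbered 2 the fit called 74 of 1246 probe sets, none of them one of the 3 genes.

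From 30 min to 2 h, all 3 genes were higher at 2 h in number 1 and in number 2, as were 336 of 1246 probe sets (27%). The log2 difference of the group means, 2 h minus 30 min, was 1.93 ± 0.53 (SE) for Cd83, 1.50 ± 0.57 for Cd207 and 0.75 ± 0.21 for Havcr2. In number 1 these differences were 0.79, 1.15 and 0.48, and in number 2 they were 1.82, 0.86 and 0.86. None of the 3, and none of the 1246 probe sets (0%), passed in the limma fit, where 27 had an unadjusted p under 0.05. The Cd207 difference was 0.79 without the 30 min sample numbered 1, 2.21 without the one numbered 2 and 0.99 ± 0.22 with the replicate block. That of Havcr2 was 1.03 without the 30 min sample numbered 1 and 0.47 without the one numbered 2. This contrast shares its 2 h samples with the one before, and it was among those that chose the genes.

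**Figure D2:**
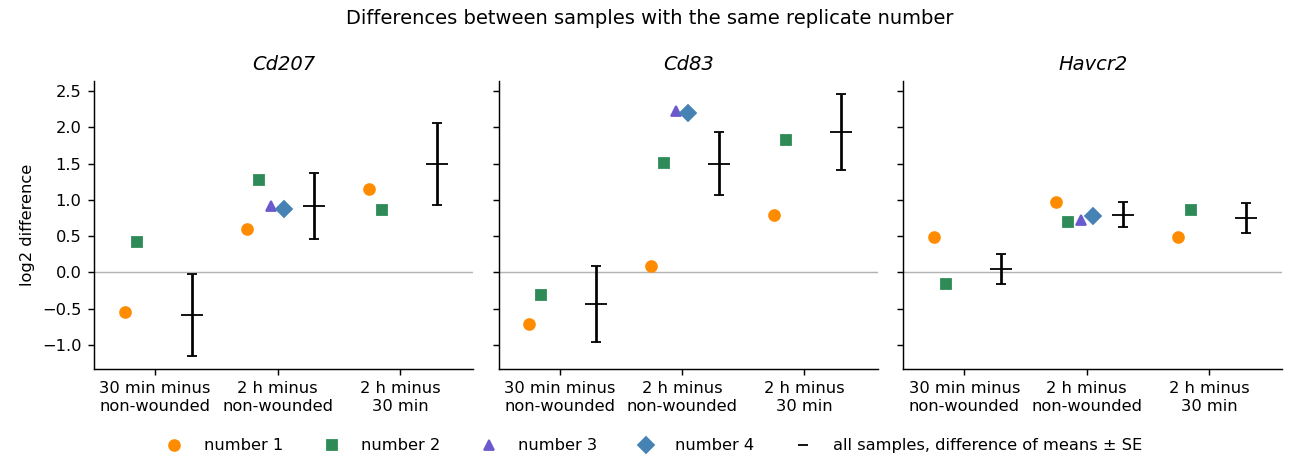
Log2 difference (vertical axis) between samples with the same replicate number (coloured points) for each contrast (horizontal axis), with the difference of the group means ± limma SE in black. Cd83 at 2 h minus non-wounded is 0.08 in number 1 and 1.50 to 2.22 in numbers 2 to 4, while Havcr2 is 0.69 to 0.97 in all 4.

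The 2 h difference was also set between numbers 2 to 4 and number 1, with an interaction term in limma on the 8 non-wounded and 2 h samples, where the single sample of number 1 in each group is assumed to vary like the others. For Cd83 the difference was larger in numbers 2 to 4 by 1.89 ± 0.48 (SE) on the log2 scale. For Cd207 the term was 0.42 ± 0.49 and for Havcr2 -0.24 ± 0.23. Over all probe sets 110 of 1246 (8.83%) passed, and 0 of the 3 genes did. These terms use the samples that the genes were picked on, and a call with the replicate block favours genes whose difference is alike across numbers, so no p is given for the 3 genes and nothing is read from the count. The narrower value range of the samples numbered 1 moves with this contrast, and its part was not tested. The Cd207 term turned to -0.12 after repeated quantile normalization and to -0.23 after scaling to a common median and SD, and that of Havcr2 was -0.95 after quantile normalization. Whether any of the 3 genes passed here also changed with the processing, and nothing is read from that.

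The samples numbered 1 alone cover every time, with 1 sample each and no test. For the non-wounded, 0 h, 30 min, 2 h and 4 h samples, Cd207 had log2 values of 7.11, 7.69, 6.57, 7.71 and 7.96. On this scale the 0 h and 2 h values of Cd207 were close, and the 30 min value was the lowest. The width of the samples changed over these times, with an SD of 1.81, 1.85, 1.56, 1.59 and 1.55 in the same order. After scaling to a common median and SD, Cd207 was at 7.32, 7.89, 7.05, 8.47 and 8.85. In percentiles it was at 91.9 at 0 h and 95.0 at 2 h, and lowest in the non-wounded sample. Cd83 was at 4.17, 4.10, 3.46, 4.25 and 4.54 over the same times, lowest at 30 min and highest at 4 h. Havcr2 was at 4.50, 4.70, 4.99, 5.47 and 5.74, each stage above the one before, which held for 1 of the 3 genes and for 13 of 1246 probe sets (1.04%). Its choice used the non-wounded and 2 h samples, which favours part of this order, so nothing is read from that count. Cd207 was also highest at 4 h, and how many of all probe sets were highest there was not counted. The 4 h value lay above all 4 non-wounded samples for 2 of the 3 (Cd83 and Havcr2), as for 483 of 1246 probe sets (38.8%). At 0 h this held for 0 of the 3, beside 368 of 1246 (29.5%).

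Between the 4 h sample and the non-wounded sample numbered 1, the log2 difference was 1.24 for Havcr2, 0.84 for Cd207 and 0.37 for Cd83. Of the 3 genes 1 was higher by 1 or more, as were 41 of 1246 probe sets (3.29%). After scaling the samples to a common median and SD, the Cd207 difference was 1.53 and that of Havcr2 was 1.57. The differences at 0 h were 0.58 for Cd207, 0.21 for Havcr2 and -0.07 for Cd83; none reached 1, and 4 of 1246 probe sets (0.321%) did. In percentiles Cd207 was at 88.3, 91.9, 88.6, 95.0 and 96.5 over the series, and Havcr2 at 56.1, 59.1, 66.3, 74.4 and 78.7.

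**Figure D3:**
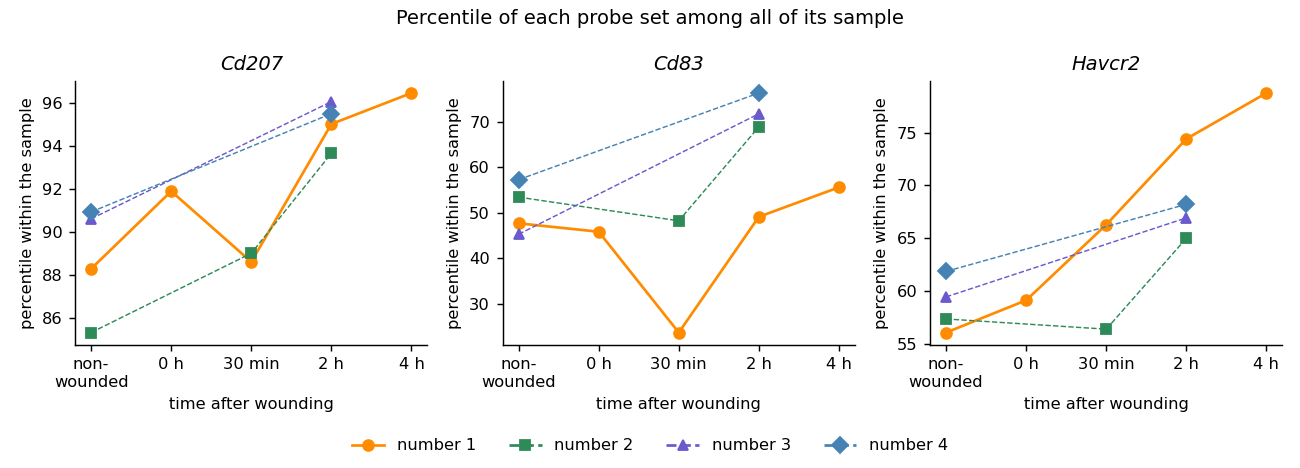
Percentile of each gene's probe set among the 1246 probe sets of its own sample (vertical axis) by time (horizontal axis); solid lines join the 5 samples numbered 1 and dashed lines join samples numbered 2, 3 or 4. Havcr2 in number 1 runs through 56.1, 59.1, 66.3, 74.4 and 78.7, while Cd83 in number 1 is lowest at 30 min (23.6).

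Pairs with Havcr2 had higher correlations in numbers 2 to 4 than over all samples, while that of Cd207 with Cd83 was nearly equal. Over the 7 samples numbered 2 to 4 the Pearson correlation of log2 values was 0.96 between Cd83 and Havcr2, 0.93 between Cd207 and Havcr2 and 0.84 between Cd207 and Cd83. Over the 12 samples it was 0.63, 0.47 and 0.83 for the same pairs. The change was not tested. These are descriptions: the samples share their arrays and the offset of number 1, and genes that are high at 2 h correlate by that alone.

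The named genes most like each of the 3 were taken by the highest Pearson correlation. Over the 12 samples Cd83 was most like the angiogenic factor Vegfa (0.94), the adhesion molecule Icam1 (0.94), the chemokine Cxcl2 (0.92), the EGF family ligand Areg (0.89) and the chemokine Ccl20 (0.88). Havcr2 was most like Icam1 (0.83), Ccl20 (0.81), Cxcl1 (0.80), the cytokine Il1b (0.80) and the EGF family ligand Hbegf (0.77). Cd207 had another set, with Uap1 (0.93), which makes UDP-N-acetylglucosamine, S100a10 (0.93), Cox18 (0.90), the Wnt ligand Wnt10a (0.88) and the glycosyltransferase B3gnt2 (0.86).

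Over the 7 samples numbered 2 to 4, Icam1 was among the 5 most like genes of Cd83 (0.99) and of Havcr2 (0.96). Cd83 was there most like Icam1, Klrc3 (0.98), Vegfa (0.97), Havcr2 and Uap1 (0.96). Havcr2 was most like Cd83, Icam1, the interferon receptor subunit Ifnar2 (0.95), Klrc3 (0.94) and the cytokine receptor subunit Csf2rb (0.94). Cd207 was most like Wnt10a (0.93), Hmgn2 (0.93), Havcr2, B3gnt2 (0.93) and the galactosyltransferase B4galt5 (0.92). Klrc3 belongs to a family of near-identical receptor genes, so its probe set may read more than 1 of them.

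Cd207 and Cd83 had been chosen by contrasts of the 2 h samples, so nothing is read from their larger 2 h differences here. The 2 h differences of other Langerhans and dendritic cell markers were smaller. Of a list of 30 such genes 8 were measured, and besides Cd207 and Cd83 they were Cd74, the invariant chain of MHC class II, Csf1r, the receptor on which Langerhans cells depend, the endocytic receptor Ly75, the cytokine receptor Flt3, the lectin Cd209a and the chemokine receptor Xcr1. The 2 h minus non-wounded differences of these other 6 ran between -0.23 ± 0.32 for Csf1r and 0.07 ± 0.20 for Ly75 (limma SE). Cd74 was at 9.56, 11.02, 11.03 and 11.06 at 2 h for numbers 1 to 4, against 10.16, 10.73, 11.13 and 11.10 in the non-wounded samples. Csf1r was at 6.52, 7.64, 7.65 and 7.84 at 2 h, against 7.15, 7.56, 7.92 and 7.95. For both genes the groups overlapped, and the 2 h sample numbered 1 was the lowest of the 8.

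Of the 8 markers, 0 passed as higher and 0 as lower, beside 0.241% of all probe sets that passed. With the replicate block 1 passed as higher (Cd207, picked by that call), beside 1.12% of all. The median difference of the 8 markers at 2 h was -0.12, against 0.03 over all probe sets. Above 0 lay 3 of 8, beside 679 of 1246 probe sets. The level of the list summed over its 8 probe sets on the linear scale was 1142.0 to 3114.0 at 2 h and 1522.4 to 2888.5 in the non-wounded samples, or 2848.8 to 3114.0 and 2158.5 to 2888.5 in numbers 2 to 4. In number 1 at 4 h, Csf1r was at 5.29, against 7.15 in the non-wounded sample, a log2 difference of -1.86, where that of Cd207 was 0.84. Csf1r was the lowest of the 8 markers there. Of the 8, 4 lay above 0 and 4 below, with a median of -0.04, against 638 above 0 and a median of 0.02 over 1246 probe sets. The lists were drawn up with earlier results of these arrays known.

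**Figure D4:**
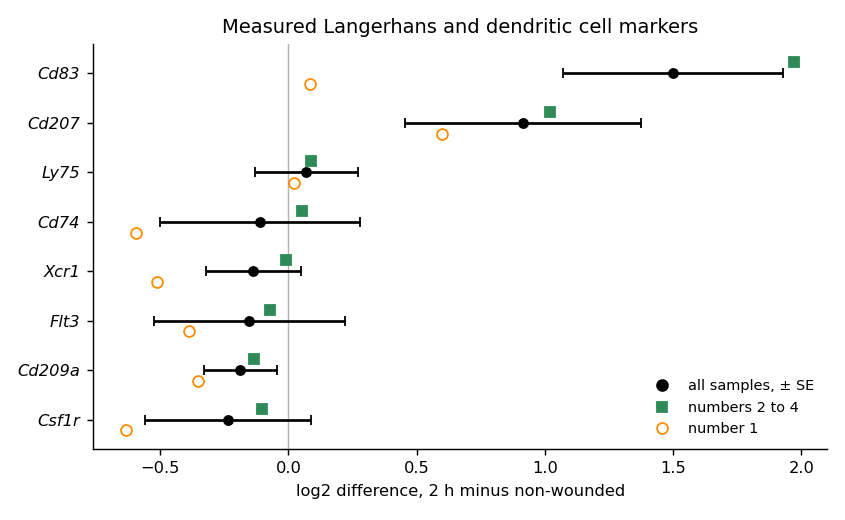
Log2 difference, 2 h minus non-wounded (horizontal axis), of the 8 measured Langerhans and dendritic cell markers (vertical axis); black points are all samples ± limma SE, squares numbers 2 to 4 and open circles the pair numbered 1. Cd83 at 1.50 and Cd207 at 0.91 lie apart from the other 6, which lie between -0.23 and 0.07. Cd83 and Cd207 were chosen by contrasts of the 2 h samples, so nothing is read from this.

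Among the C-type lectins of myeloid cells, 27 of 37 listed genes were measured. None passed in either direction, beside 0.241% of all probe sets. With the block Cd207 alone passed, picked by that call, beside 1.36%. The median 2 h difference was 0.08, with 20 of 27 above 0, against 0.03 and 679 of 1246 over all probe sets. After scaling to a common median and SD these were -0.05 and 8 of 27, against -0.06 and 457 of 1246. After Cd207 the smallest p belonged to Clec4d, a receptor of neutrophils and macrophages, at 0.44 ± 0.27 (SE; limma adjusted p = 0.998). Its values were 4.11, 3.22, 3.98 and 3.47 at 2 h and 3.87, 3.05, 3.03 and 3.07 in the non-wounded samples, which overlapped.

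Of the TIM family and the ligands of TIM-3, 5 of 9 listed genes were measured. None passed in either direction, beside 0.241% of all probe sets. With the block Havcr2 alone passed, picked by that call, beside 1.36%. The median difference was 0.19 with 4 of 5 above 0, against 0.03 and 679 of 1246 over all probe sets. Havcr1, Timd2 and Timd4, the other TIM receptors, were at 0.18, 0.19 and 0.20, and in numbers 2 to 4 alone at 0.14, 0.03 and 0.15, where Havcr2 was at 0.73. The TIM-3 ligand Lgals9 was at 5.11, 6.02, 5.78 and 5.47 at 2 h, against 5.15, 5.36, 6.06 and 6.97 in the non-wounded samples, a difference of -0.29 ± 0.45 (SE; limma adjusted p = 0.998) with overlapping ranges.

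Of 28 costimulatory and co-inhibitory surface molecules listed, 4 were measured: Cd83, Havcr2, Icam1 and Cd48. None passed, beside 0.241% of all probe sets, and with the block 2 passed as higher (Icam1, and Havcr2, which that call had picked), beside 1.12%. The median difference was 1.15, against 0.03 over all probe sets. That median lies between Cd83 and Havcr2, which were picked by contrasts of the 2 h samples, so nothing is read from it. Icam1, which binds the leukocyte integrin LFA-1, was at 6.05, 7.47, 8.16 and 8.59 at 2 h, against 4.68, 5.06, 4.79 and 5.50 in the non-wounded samples, with no overlap. Its log2 difference was 2.56 ± 0.48 (SE; limma adjusted p = 0.0777, or 0.0114 with the block). Cd48, a ligand of CD2 family receptors, was at -0.49 ± 0.23 (limma adjusted p = 0.998).

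Growth and survival factors of Langerhans cells and their receptors were measured for 22 of 28 listed genes. None passed in either direction, beside 0.241% of all probe sets, nor with the block, beside 1.36%. The median difference was -0.07, against 0.03 over all probe sets. Csf2rb, the shared signalling subunit of the GM-CSF receptor, had the smallest p, at 4.83, 5.95, 6.11 and 6.55 at 2 h and 3.94, 5.11, 5.28 and 5.22 in the non-wounded samples, a difference of 0.97 ± 0.40 (SE; limma adjusted p = 0.876). Its near-identical copy Csf2rb2 was at 0.40 ± 0.27 (0.998), and the probes may not separate these copies.

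Signals that mobilise Langerhans cells were measured for 20 of 32 listed genes. Of them 1 passed as higher and 0 as lower, beside 0.241% of all probe sets. With the block 3 passed as higher, beside 1.12%. The median was 0.08 with 13 of 20 above 0, against 0.03 and 679 of 1246 over all probe sets. After scaling it turned to -0.02 with 9 above 0, against -0.06 and 457 of 1246. The one that passed without the block was Ccl20, a chemokine that draws CCR6-bearing cells. It was at 5.56, 7.55, 8.78 and 8.44 at 2 h and 3.91, 3.95, 2.91 and 3.19 in the non-wounded samples. Its log2 difference was 4.09 ± 0.65 (limma adjusted p = 0.0412). No probe set passed with each sample centred on its median (smallest adjusted p = 0.124), nor without any 1 of the 8 samples compared other than the 2 h sample numbered 1, so this call was lost there. At 30 min no member of any of these 6 lists passed, and neither did any of the 1246 probe sets.

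Markers of other cell types were read beside these differences, for 9 lists. In the fit without the block none of their measured members passed at 2 h, beside 0.241% of all probe sets. With the block 1 keratinocyte marker passed as higher (Areg) and 1 as lower (Il20rb). Of all probe sets 1.12% passed there as higher and 0.241% as lower. Neutrophil markers were above 0 in 7 of 7, with a median difference of 0.22. Endothelial markers were above 0 in 5 of 5 (0.16) and dermal fibroblast markers in 7 of 8 (0.16). After scaling to a common median and SD this held in 6, 4 and 5. Of all probe sets 679 of 1246 lay above 0, or 457 after scaling. The summed linear level of the 7 neutrophil markers was 465.3 to 1458.4 at 2 h and 342.9 to 1306.6 in the non-wounded samples, a sum made up mostly of Il1r2, which also stands in the keratinocyte list. The sum of the 5 endothelial markers was 66.3 to 80.6 at 2 h and 56.3 to 71.6 in the non-wounded samples, and that of the 8 fibroblast markers 124.9 to 148.0 at 2 h and 98.3 to 130.9 in the non-wounded samples. The medians of the other lists were -0.10 for keratinocytes (6 measured), -0.05 for T cells (11), -0.10 for NK cells (5), 0.08 for monocytes and macrophages (7), -0.05 for B cells (4) and 0.04 for mast cells (2). After scaling they were 0.02, -0.12, -0.25, -0.05, -0.18 and -0.10 in the same order. The sign turned for keratinocytes, monocytes and macrophages, and mast cells. The median of all probe sets also turned, from 0.03 to -0.06. RMA values are never 0, so no marker can be called absent, and the part of these cells in the values of Cd207, Cd83 and Havcr2 was not tested.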

How the data were processed

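Expression was measured in 12 mouse samples on single-colour Affymetrix arrays with biotin-labelled cRNA, per the labels' protocols. The deposited values are log2 intensities made by the authors with RMA, per the submitters' processing notes, which give no version; the log2 scale was read from the values, and which probe filters were applied is not given in the sources used here. Scanner files and scan batches were not analysed here. Values were used as deposited, 1 row per probe set, with symbols matched through RefSeq accessions. RMA fits probes across all arrays, so samples are not fully independent, and precision is limited by how few arrays there are.

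Group means over all 12 samples were fitted with limma 3.58.1 (lmFit and eBayes, R 4.3.3), and p-values were adjusted by Benjamini-Hochberg over 1246 probe sets with a threshold of 0.05. The interaction was fitted on the 8 non-wounded and 2 h samples. The fits were tested on simulated data. Named genes are the 3 studied, the 5 most correlated with each, the listed genes with the smallest p at 2 h and the brightest of each marker list. Others, among them Csf1r, Cd74, Lgals9 and Il17a, were chosen after their values were seen. Cd74 and Lgals9 were also the brightest measured genes of their lists in the non-wounded samples. The 3 genes and the gene lists were chosen with earlier results of these data known.

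Titles give replicate numbers shared between groups. Deviations of same-numbered non-wounded and 2 h samples from their group means correlated at 0.796, 0.449, 0.651 and 0.297 for numbers 1 to 4, so the number was used as a block in an alternative fit; without number 1 the correlations were -0.150, 0.0727 and -0.319 for numbers 2 to 4. Other alternatives were a term for number 1, numbers 2 to 4 alone, quantile normalization, centring, scaling, leaving out probe sets dimmer than the 25 percentile, an intensity trend with a robust prior, the compared groups only, and each replicate left out. Figures were drawn with matplotlib 3.10.9.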

Additional observations from a re-analysis of the deposited data

Results flagged for a closer look

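In the groups of 4, samples whose gap to the nearest other sample, as a share of the group's range, was over Dixon's critical value were picked out. The 27 genes examined were the Langerhans and dendritic cell markers, the genes named from the gene lists by their p at 2 h and the brightest gene of each list. This held in 12 of 54 groups of values, and each such sample was numbered 1. Chance gives about 1 in 20 for a single group. The genes were read on the same arrays, so the groups are not independent and their share cannot be set against that rate. The other samples follow as their range. None of the 12 groups picked out belonged to Cd207, Cd83 or Havcr2.

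Among the 2 h samples, number 1 was lowest for Cd74 (9.56, others 11.02 to 11.06, gap 0.973), Csf1r (6.52, others 7.64 to 7.84, gap 0.845), Csf2rb2 (4.38, others 5.02 to 5.13, gap 0.846), Lgals7 (11.26, others 12.27 to 12.29, gap 0.981) and the interleukin-1 decoy receptor Il1r2 (8.61, others 10.18 to 10.44, gap 0.858). It was highest for Timd2 (3.84, others 3.24 to 3.30, gap 0.898).

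Among the non-wounded samples, number 1 was lowest for Csf2rb (3.94, others 5.11 to 5.28, gap 0.877) and the alarmin Il33 (6.36, others 8.82 to 9.02, gap 0.925). It was highest for Xcr1 (2.92, others 2.51 to 2.57, gap 0.866), Clec4d (3.87, others 3.03 to 3.07, gap 0.952), the cytokine receptor subunit Il2rg (6.95, others 6.30 to 6.36, gap 0.906) and the chemokine Cxcl12 (5.49, others 4.64 to 4.70, gap 0.930).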

How the results depend on the processing

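Under the 9 alternatives the 2 h minus non-wounded difference was 0.83 to 1.13 for Cd207 and 1.18 to 1.97 for Cd83. That of Havcr2 was 0.71 to 0.81. With 1 sample left out the ranges were 0.67 to 1.27, 1.20 to 1.96 and 0.74 to 0.85 in the same order. The moves under the alternatives were less than 1 SD of the replicates. The block and the term for number 1 could not move the differences, since both groups hold the same numbers. Nor could the trend, the leaving out of dim probe sets or the compared groups only, which leave these values unchanged. The residual SD of Cd83 was 0.68 over all samples and 0.37 in numbers 2 to 4 alone, so 1 SD is a wide measure. The count of called probe sets, 3, became 17 with the replicate block, 20 with a term for number 1, 38 in numbers 2 to 4 alone, 7 after quantile normalization, 0 after centring (70 at an unadjusted p under 0.05) and 8 with an intensity trend and robust prior, and 0 to 11 with 1 sample left out. A share of 0.05 of all probe sets is expected under an unadjusted 0.05 with no difference. The block changed no call of the 3 genes at 30 min. At 30 min the count was 0 in limma under these 9 alternatives and 0 to 74 with 1 sample left out; scaling moved the median difference of all probe sets there by over 0.1, to -0.09, against 0.04. The Cd207 difference at 30 min was -1.29 to 0.13 with 1 sample left out. That of Havcr2 was -0.29 in numbers 2 to 4, -0.0498 after centring and -0.23 to 0.32 with 1 sample left out. For 2 h minus 30 min the count was 1 with a term for number 1, 2 in numbers 2 to 4, 2 after quantile normalization, 1 after scaling, and 0 to 9 with 1 sample left out, the Cd207 difference was 0.79 to 2.21 with 1 sample left out, and the Havcr2 difference was 1.02 in numbers 2 to 4 and 0.47 to 1.03 with 1 sample left out. The interaction, called for 110 probe sets, was called for 279 after quantile normalization, 313 after scaling, 29 without dim probe sets and 167 with a trend and robust prior; the split between higher and lower was 56 and 54, and 21 and 8 without dim probe sets. Its Cd207 term was -0.12 after quantile normalization and -0.23 after scaling, its Cd83 term 1.64 after scaling and 1.89 with the trend, and its Havcr2 term -0.95 after quantile normalization. Cd83 passed in the interaction after scaling and with the trend, and Havcr2 after quantile normalization. Havcr2 at 4 h in number 1 was at 1.57 after scaling. The cause of these changes was not tested. With 1 or 2 samples at 0 h, 30 min and 4 h, those times are thinly measured.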
